A study of Mus musculus with 4 samples.

Results

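Migratory dendritic cells, which carry the chemokine receptor Ccr7 and the actin-bundling protein Fscn1, were a rare population of the MC38 tumour infiltrate, with 78 cells among 44184 kept barcodes. They were chosen by raw UMI counts (unique molecular identifiers, 1 per captured transcript) and not by clustering. A member had at least 2 UMIs of Ccr7, at least 1 of Fscn1 and at least 10 of H2-Ab1, the beta chain of an MHC class II molecule. It had no UMI of the T cell receptor complex genes Cd3d, Cd3e and Cd3g, of the macrophage gene Adgre1 or of the B cell gene Cd79a. Barcodes under 200 genes, or with over 20% of their UMIs from mitochondrial genes, were left out first, and 44184 of 47276 were kept. The tumours, of the mouse colon adenocarcinoma line MC38, had grown in Park2-/- mice (KO, 2 libraries) and in WT mice (2 libraries). For both genotypes, immune cells were drawn from the digested tumours with magnetic beads against CD45 and then captured in droplets with a 3' kit. The sources used here do not give strain, age or how many mice stand behind a library. A p-value therefore measures only how libraries vary, which may be technical. The members numbered 21 and 15 in KO libraries 1 and 2, and 21 and 21 in WT libraries 1 and 2.

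Conventional dendritic cells take up antigen in a tissue and, on activation, enter a maturation programme. They raise Ccr7, which guides them along the ligands Ccl19 and Ccl21 into lymphatics and lymph nodes, and rearrange their actin skeleton with Fscn1. The programme runs largely through NF-kappaB, above all its non-canonical arm of Map3k14, Nfkb2 and Relb, and brings co-stimulatory molecules for T cells, the chemokines Ccl22 and Ccl17, and checkpoint ligands such as Cd274 (PD-L1). In tumours such cells are also called mature dendritic cells enriched in immunoregulatory molecules, since activating and inhibitory genes are expressed side by side.

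The libraries held 17207 and 9498 kept barcodes in KO, and 8664 and 8815 in WT, with median depths of 6052 and 8308 UMIs in KO and of 9906 and 12133 in WT. Members had median depths of 7775 and 10075 UMIs in KO, against 8465 and 9665 in WT, and their summed counts ranged from 159066 to 255446 UMIs per library. A single cell of 60601 UMIs made up 23.7% of the WT 1 sum, whereas the deepest cell of the other libraries made up 8.23% to 15.3%. Between 21 and 49 kept barcodes were shared by each pair of libraries, and no barcode was a member in more than 1 library. Levels are given as CPM, the UMIs of a gene in a set of cells of 1 library per 1000000 UMIs of that set.

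The label was checked with genes that the gate had not used. Ccl22, a ligand of Ccr4 on regulatory and type 2 helper T cells, had at least 1 UMI in 21 of 21 and 14 of 15 members of KO 1 and KO 2, and in 20 and 19 of 21 members of WT 1 and WT 2. In macrophage-gated cells (at least 2 UMIs of Adgre1 and of C1qa, no Ccr7) of median depths between 11725 and 17511 UMIs, Ccl22 was present in 0.710% and 2.11% of cells in KO and in 1.15% and 1.92% in WT. The share among members was thus far above that among cells that should lack the gene. Flt3, the growth factor receptor of dendritic cells, had 75.9 and 101 CPM in KO members and 106 and 103 CPM in WT members. Zbtb46, a transcription factor of conventional dendritic cells, had 32.5 and 62.9 CPM in KO members and 50.9 and 54.2 CPM in WT members. Both are low levels, given here without those of macrophage-gated or T cell-gated cells, so they do not set members apart.

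Markers of T cells, plasmacytoid dendritic cells, neutrophils and epithelium were at or near 0, while monocyte and macrophage RNA was present. Of 8 T cell markers, Lck and the 3 gate genes were at 0 in every library, and the summed level of the list was 16.3 and 37.7 CPM in KO members and 0 and 4.92 CPM in WT members, against 5764 to 6659 CPM in T cell-gated cells. The plasmacytoid dendritic cell genes Siglech, Cox6a2 and Klk1, the keratins Krt8, Krt18 and Krt19 and the neutrophil genes Retnlg, Csf3r and Cxcr2 had no UMI in a member. The cDC2 gene Cd209a had none either, and 7 of 78 members had a UMI of the cDC1 genes Xcr1 or Clec9a. Other genes of these lists were seen at low levels, with Ccr9 at 25.2 CPM in KO 2 and Epcam at up to 14.8 CPM. The neutrophil list summed to at most 15.7 CPM. The 5 monocyte markers summed to 358 and 182 CPM in KO members and to 176 and 492 CPM in WT members, against 230 to 799 CPM in macrophage-gated cells. Plac8 alone had 419 CPM in WT 2. Macrophage RNA was present and was higher in both KO libraries, without a test. The 8 macrophage markers summed to 1024 and 1144 CPM in KO members and to 395 and 739 CPM in WT members, against 20177 to 31457 CPM in macrophage-gated cells. In KO 2 a single cell held 67.2% of the UMIs of C1qa, C1qb and C1qc, and without the cell richest in these genes in each library the sums were 1012 and 705 CPM in KO and 283 and 676 CPM in WT. C1qa, a subunit of complement C1q, was seen in 85.7% and 86.7% of KO members and in 47.6% and 47.6% of WT members. T cell-gated cells, which should lack it, had C1qa in 63.7% and 51.8% in KO and in 29.9% and 35.1% in WT, at median depths between 2856 and 3239 UMIs.

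**Figure D1:**
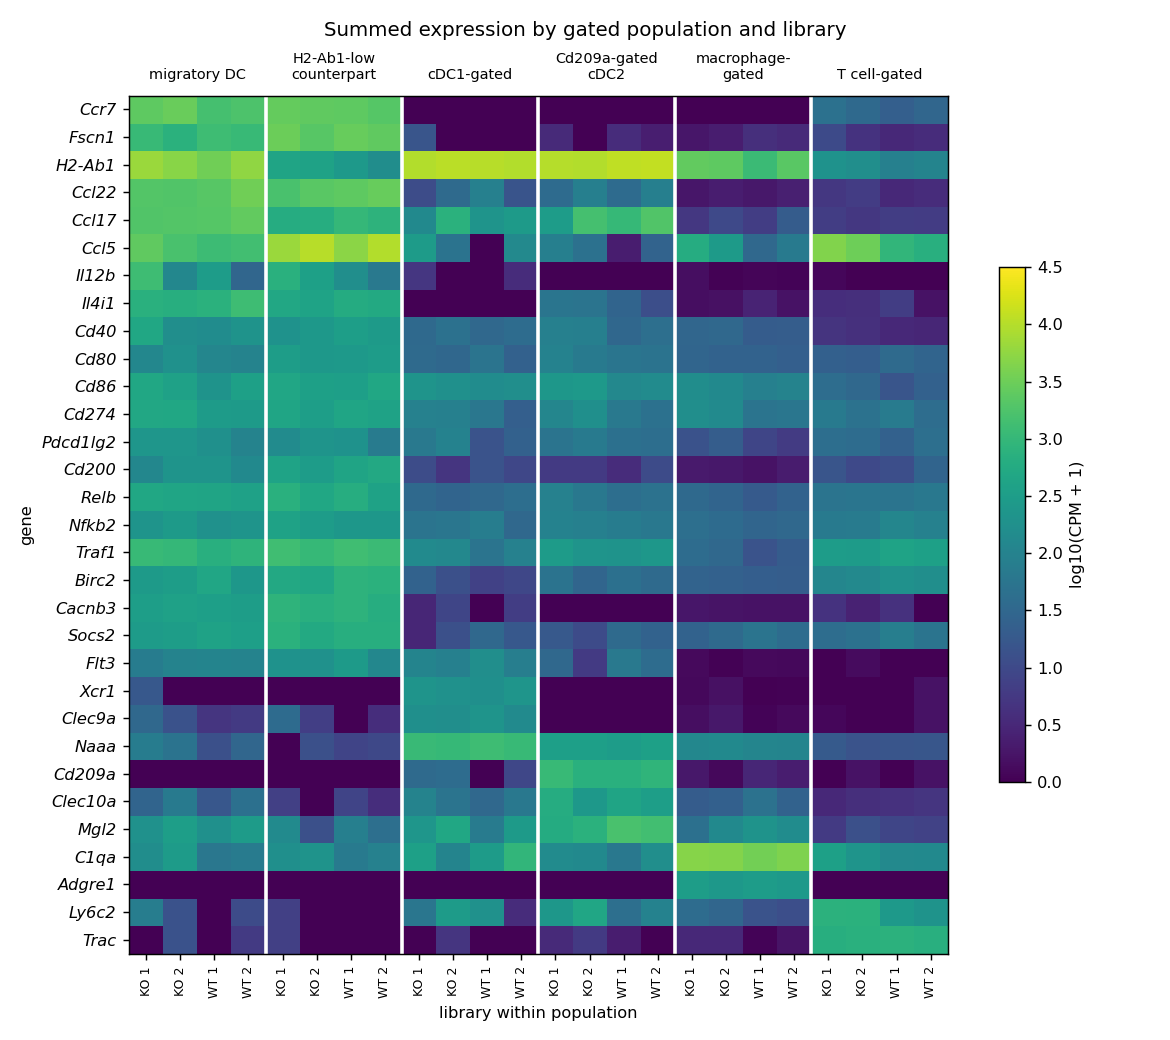
Summed expression of marker genes, as log10(CPM + 1), in 6 gated populations, with KO 1, KO 2, WT 1 and WT 2 as columns within each. Ccr7, Fscn1 and H2-Ab1 chose the migratory DCs, while Ccl22, Il4i1, Cacnb3, Socs2 and Relb were not used by the gate and are bright in migratory DCs and in their H2-Ab1-low counterpart.

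The gate genes are given as a description. Ccr7 had a median of 23 and 32 UMIs per member in KO and of 14 and 12 in WT, with the lowest member at 3 UMIs, so no member stood at the minimum of 2. Fscn1 had medians of 6 and 3 UMIs in KO and of 13 and 8 in WT, and 12 members stood at its minimum of 1. H2-Ab1 had medians of 36 and 51 UMIs in KO and of 25 and 51 in WT, and 2 members stood at its minimum of 10. Outside the gate, 4 barcodes met every other criterion with 1 UMI of Ccr7. Of barcodes that missed a single criterion, 116 failed by Fscn1 alone, 98 by Ccr7 alone, 15 by Adgre1 alone, 7 by the Cd3 genes alone and 1 by Cd79a alone. H2-Ab1 kept out the most, 176 barcodes that met every other criterion, 35 and 24 in KO and 55 and 62 in WT.

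These H2-Ab1-low cells were mostly far below the minimum. Of the 254 cells that met the gate without its H2-Ab1 minimum, 76 had no UMI of H2-Ab1, 83 had 1 to 4, 17 had 5 to 9, 14 had 10 to 19, 25 had 20 to 39 and 39 had 40 or more. The cells with no UMI made up 8.93% and 15.4% in KO and 42.1% and 39.8% in WT. Median depths of the H2-Ab1-low cells were 4381 and 5899 UMIs in KO and 4315 and 5710 in WT, lower than those of members in every library. Since a minimum on H2-Ab1 split both sets, their differences are described without a test, and the genes named here were chosen after their values were seen. Ccl22 overlapped between both sides of the minimum, at 1988 and 1886 CPM in KO members and 2141 and 3304 in WT members, and at 1599 and 2189 CPM in H2-Ab1-low cells of KO and 2430 and 2858 in those of WT.

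Several genes lay apart in every library. Ccl5 had 2481 and 1584 CPM in KO members and 1198 and 1393 in WT members, but 6647 and 10221 CPM in H2-Ab1-low cells of KO and 5175 and 9495 in those of WT. Il15ra, which presents interleukin 15 to lymphocytes, had 75.9 and 56.6 CPM in KO members and 47.0 and 29.5 in WT members, but 276 and 158 in H2-Ab1-low cells of KO and 258 and 145 in those of WT. Fscn1, Cacnb3, Net1, Slc27a3, Cd200 and H2-K1 were likewise lower in members in 4 of 4 libraries. So were Relb, Nfkb2, Map3k14, Rel, Birc2, Traf1, Socs2, Cd80, Cd70 and Flt3. Il4i1 was higher in members in 4 of 4 libraries, and Cd40, Cd86, Cd274, Pdcd1lg2, Fabp5 and Nfkbia went both ways. High levels of these maturation, NF-kappaB and co-stimulation genes, set below against Ccr7-negative cells, are thus not particular to members. Ciita, the master regulator of MHC class II genes, had 81.3 and 145 CPM in KO members and 110 and 98.5 in WT members, but 6.13 and 0 CPM in H2-Ab1-low cells of KO and 11.2 and 5.68 in those of WT. Cd74, H2-Aa, H2-Eb1, H2-DMb2, Ccl17, Ccr2, Itgax and Plac8 were, like Ciita, higher in members in 4 of 4 libraries. MHC class II genes thus went with H2-Ab1, on which these cells were divided. The 5 monocyte markers summed to 30.6 and 58.5 CPM in H2-Ab1-low cells of KO and to 33.7 and 11.4 in those of WT. Each sum was below that of the members of the same library, given above.

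The share of members was lower in both KO libraries than in both WT libraries by a difference that did not pass the exact permutation test used here. Their share of kept barcodes was 0.122% (exact 95% binomial interval 0.0756% to 0.187%) in KO 1 and 0.158% (0.0884% to 0.260%) in KO 2, against 0.242% (0.150% to 0.370%) in WT 1 and 0.238% (0.148% to 0.364%) in WT 2. The means were 0.140 ± 0.0254% in KO and 0.240 ± 0.00297% in WT (SD, n = 2 libraries each), a log2 ratio of -0.78, and both KO libraries lay below both WT libraries. An exact two-sided permutation test gave p = 0.333, which is the smallest that 2 against 2 libraries allow. Intervals cover counting error only. As a share of gated dendritic cells (members, cDC1-gated and Cd209a-gated cells) members made up 17.8% and 25.4% in KO and 20% and 18.8% in WT, so that the genotypes overlapped (exact p = 1). The choice of denominator thus turned the direction, with a log2 ratio of 0.16.

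Without the H2-Ab1 minimum, an alternative added after the data had been seen, the difference in the share of kept barcodes was larger. The share was 0.325% and 0.411% in KO, from 56 and 39 cells, against 0.877% and 0.942% in WT, from 76 and 83 cells. The log2 ratio was -1.31, again at the smallest possible p of 0.333 in the exact permutation test. Members held 37.5% and 38.5% of this wider set in KO and 27.6% and 25.3% in WT. H2-Ab1-low cells accordingly held a smaller part of the wider set in KO libraries than in WT libraries.

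**Figure D2:**
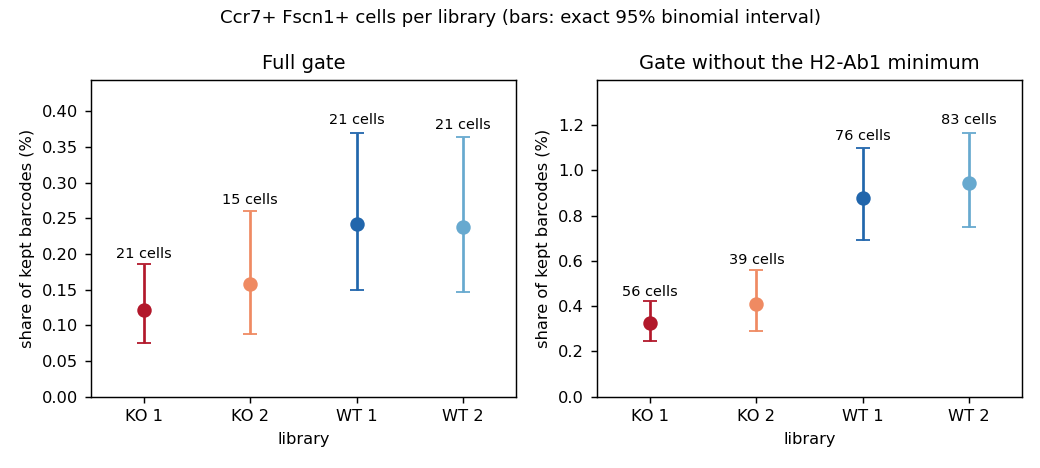
Share of kept barcodes (%) that met the full gate (left) and the gate without its H2-Ab1 minimum (right) in each library, with exact 95% binomial intervals and the number of cells. KO libraries lie at 0.122% and 0.158% and WT libraries at 0.242% and 0.238% on the left, and the intervals of KO and WT libraries do not overlap on the right.

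Among themselves the members varied widely in secreted factors. Ccl22 ranged from 1 to 96 UMIs per cell in KO 1 and from 0 to 66 in KO 2, and from 0 to 196 in WT 1 and from 0 to 127 in WT 2. Ccl17, the second Ccr4 ligand, was seen in 58 of 78 members, always together with Ccl22 in these 58, and 16 members had Ccl22 without Ccl17. Ccl5, a chemokine for T cells and monocytes, was found beside Ccl22 in 58 of 78 members. Its level rests on few cells in KO libraries, where 1 cell gave 38.0% and 65.5% of its UMIs, against 15.4% and 27.2% in WT. T cell-gated cells held 4364 and 3259 CPM of Ccl5 in KO, against 909 and 676 CPM in WT, and macrophage-gated cells had a Ccl5 UMI in 58.3% and 48.1% in KO, against 5.77% and 13.7% in WT. The part of such free RNA in the Ccl5 of members was not tested.

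Il12b, the shared subunit of interleukins 12 and 23, was confined to a minority. It was seen in 9 of 21 and 2 of 15 members in KO and in 3 and 2 of 21 in WT, and a single cell gave between 52.6% and 83.3% of its UMIs in each library. The cell with the most Il12b had 148 UMIs in KO 1 and 41 in WT 1. Macrophage-gated cells had an Il12b UMI in at most 0.184% of cells, below the share of members in every library. The part of free RNA in members with few UMIs of Il12b was not tested. Cxcl9, a ligand of Cxcr3 that attracts effector T cells, was seen in 13 of 21 and 7 of 15 members in KO, and in 1 and 6 of 21 in WT. Macrophage-gated cells had it in 56.7% and 55.5% in KO and in 10.2% and 23.1% in WT, close to the share of members in each library. Macrophage-gated cells held 710 and 550 CPM of Cxcl9 in KO and 112 and 260 in WT. T cell-gated cells held 61.4 and 38.5 CPM in KO and 4.49 and 49.3 in WT. Macrophage-gated cells are thus no measure of free RNA for this gene. Cxcl9 at 1 or 2 UMIs in a member was still not read as expression, since its source was not tested. Single members had up to 54 UMIs in KO 1 and 59 in WT 2.

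**Figure D3:**
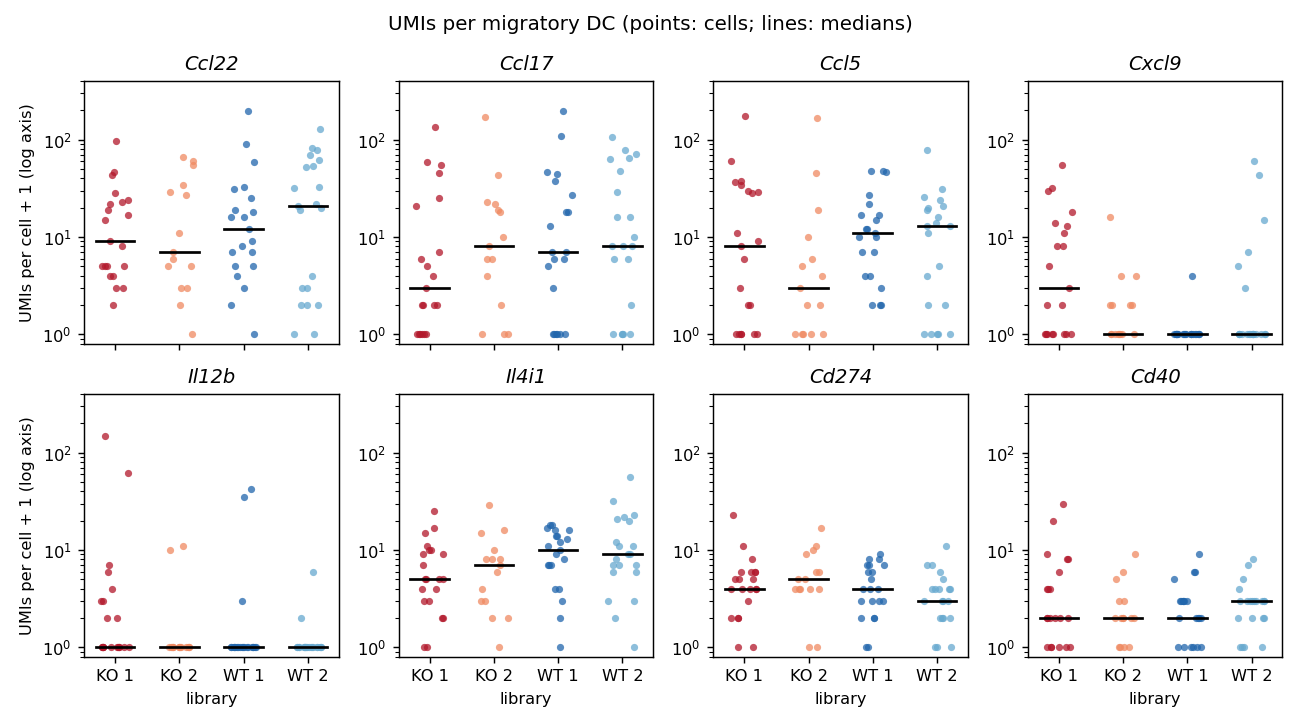
UMIs per migratory DC plus 1, on a log axis, for 8 genes in KO 1, KO 2, WT 1 and WT 2, with 1 point per cell and a line at the median. Il4i1 and Cd274 lie above 0 UMIs in nearly all members, while Il12b is carried by a few cells of each library and Cxcl9 is at 0 in most WT cells.

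Inhibitory genes were seen in most members. Il4i1, a secreted enzyme that breaks down phenylalanine and tryptophan, had a UMI in 73 of 78 members, Cd274 in 69, Pdcd1lg2 (PD-L2) in 53 and Cd200, the ligand of an inhibitory myeloid receptor, in 49. At least 1 of Cd274, Pdcd1lg2 and Cd200 was seen in 75 of 78 members. Macrophage-gated cells had Il4i1 in at most 1.37% of cells but Cd274 in 37.1% to 72.0%, so the share for Cd274 alone does not set members apart. Cd40, through which helper T cells license dendritic cells, was seen in 58 members, and Cd40, Cd80 and Cd86 together in 37. Cycling genes were rare, with a UMI of Mki67 or Top2a in 11 of 78 members. In WT 1 the cell of 60601 UMIs carried 85.9% of the Top2a UMIs, and its level there was 278 CPM with that cell and 51.3 CPM without it.

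Members were then set against Ccr7-negative conventional dendritic cells of the same libraries, with the library as a block. cDC1-gated cells (98 in all, with at least 2 UMIs of Xcr1 and Clec9a together) gave at least 20 cells in both populations only in KO 1 and WT 2. Cd209a-gated cDC2 (218 in all, with at least 2 UMIs of Cd209a and none of Xcr1 or Clec9a) gave them in KO 1, WT 1 and WT 2. All had the same H2-Ab1 minimum, and genes of either gate are left out of the results. Both comparisons use the same members, so they are not independent. The test was edgeR's quasi-likelihood test, and p-values were adjusted by Benjamini-Hochberg over all genes tested. Against cDC1-gated cells 459 of 3877 genes were higher in members (11.8%) and 314 lower (8.10%). Against Cd209a-gated cDC2 563 of 4703 genes were higher (12.0%) and 488 lower (10.4%). Scaling by total counts, instead of TMM, gave a median log2 change over all genes of -0.30 and -0.19, and the split became 346 higher and 570 lower against cDC1-gated cells, and 398 and 640 against Cd209a-gated cDC2. Under total counts the median log2 change turned negative for MHC class II genes (-0.18, against 0.12 with TMM) and cDC2 genes (-0.16, against 0.14) over cDC1-gated cells, and for cDC1 genes over Cd209a-gated cDC2 (-0.16, against 0.05).

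Of the chemokine list, 4 of 10 members tested were higher against cDC1-gated cells (Ccl17, Ccl22, Ccl5, Cxcl16) and 1 lower (Cxcl2). Against Cd209a-gated cDC2 4 of 12 were higher (Ccl17, Ccl22, Ccl5, Cxcl16) and 2 lower (Ccl3, Ccl4). Ccl22 had 1988 and 3304 CPM in members of KO 1 and WT 2, against 10.3 and 13.6 CPM in cDC1-gated cells, a log2 change of 7.98 ± 0.45 (SE; edgeR adjusted p = 3.13e-05). Against Cd209a-gated cDC2, with 36.4, 36.1 and 86.7 CPM in KO 1, WT 1 and WT 2, it was higher by 5.81 ± 0.24 (2.31e-09). In both comparisons every library of members lay far above its own Ccr7-negative cells. Ccl17 differed less, since Cd209a-gated cDC2 held 309, 1027 and 1896 CPM of it, against 1934, 2063 and 2600 CPM in members of KO 1, WT 1 and WT 2. Its log2 change was 3.75 ± 0.34 against cDC1-gated cells (adjusted p = 0.000164, edgeR) and 1.52 ± 0.39 against Cd209a-gated cDC2 (0.0311). The second of these calls was lost with total counts (1.31, edgeR adjusted p = 0.113) and with a minimum of 10 cells (1.25, 0.0997). Against Cd209a-gated cDC2, Ccl5 lost its call without WT 2 (6.10, edgeR adjusted p = 0.138) and Ccl3 without WT 1 (-1.26, 0.0736). Cxcl16, the membrane-bound ligand of Cxcr6 on tumour T cells, was higher by 1.31 ± 0.25 and 1.37 ± 0.19 (0.00740 and 0.000158). Cxcl9 did not pass either test, with 0.27 ± 0.28 (0.544) and 1.60 ± 0.85 (0.327).

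The migration list had 10 of 11 tested genes higher in each comparison and none lower. Its largest change against cDC1-gated cells was seen for Marcksl1, which links membrane and actin, with 927 and 566 CPM in members of KO 1 and WT 2 against 35.1 and 32.6 CPM in cDC1-gated cells (log2 change 4.69 ± 0.30, edgeR adjusted p = 3.13e-05). Swap70, an actin-binding protein needed for dendritic cell movement, was higher by 3.02 ± 0.30 and 2.69 ± 0.34. Among chemokine receptors other than Ccr7, Ccr1 and Ccr2, which serve entry into inflamed tissue, were lower than in Cd209a-gated cDC2. Their log2 changes were -2.08 ± 0.36 and -1.71 ± 0.27 (edgeR adjusted p = 0.00106 and 0.000388). None of 4 receptors passed against cDC1-gated cells, although Ccr1 did at a minimum of 10 cells (-1.06, edgeR adjusted p = 0.0201).

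All 19 maturation genes tested were higher than in cDC1-gated cells and all 21 than in Cd209a-gated cDC2, apart from the gate genes, and with total counts 18 and 19 of them passed. Cacnb3, a calcium channel beta subunit and a marker of this cell state, had 336, 352 and 320 CPM in members of KO 1, WT 1 and WT 2 and no UMI in Cd209a-gated cDC2, where it was at least 212-fold lower (floor of 3 counts over the group). Against cDC1-gated cells, with 2.06 and 5.44 CPM, its log2 change was 6.63 ± 0.44 (edgeR adjusted p = 3.44e-05). Il12b had 312 UMIs in members and none in Cd209a-gated cDC2, at least 305-fold higher, with the few cells named above carrying most of it. Socs2, an inhibitor of cytokine signalling, was higher by 5.46 ± 0.46 against cDC1-gated cells and by 3.94 ± 0.26 against Cd209a-gated cDC2 (0.000131 and 2.55e-07). Fabp5, a fatty acid carrier, was higher by 4.65 ± 0.44 and 3.85 ± 0.51 (0.000168 and 0.00510). Each of these genes was higher in members in every library that entered the fit.

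Co-stimulatory and TNF family ligands followed, with 7 of 9 higher against cDC1-gated cells and 6 of 9 against Cd209a-gated cDC2. Cd40 had 488 and 207 CPM in members of KO 1 and WT 2, against 33.0 and 38.1 CPM in cDC1-gated cells (log2 change 3.49 ± 0.36, edgeR adjusted p = 0.000262), and it was higher by 2.55 ± 0.24 than in Cd209a-gated cDC2 (5.50e-06). Cd80 and Cd86, the ligands of Cd28 and Ctla4, differed less, by 2.14 ± 0.37 and 1.39 ± 0.24 against cDC1-gated cells and by 0.98 ± 0.28 and 1.22 ± 0.22 against Cd209a-gated cDC2. Against Cd209a-gated cDC2 Cd80 lost its call with total counts (0.77, edgeR adjusted p = 0.0672), where 4 of 9 genes were higher, and also without WT 1 (0.84, 0.0716) and without WT 2 (0.80, 0.0869). Cd70, the ligand of Cd27, had 30 UMIs in members of KO 1, WT 1 and WT 2 and none in Cd209a-gated cDC2, at least 29.3-fold higher. The exception was Cd48, a ligand of Cd244, lower with log2 changes of -1.30 ± 0.32 and -1.73 ± 0.26 (edgeR adjusted p = 0.0211 and 0.000359).

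The regulatory list had 7 of 11 genes higher and 1 lower (Havcr2) against cDC1-gated cells, and 10 of 14 higher and 2 lower (Socs3, Lgals9) against Cd209a-gated cDC2. Il4i1 had 715 and 1255 CPM in members of KO 1 and WT 2 and no UMI in cDC1-gated cells, at least 284-fold higher. Cd209a-gated cDC2 had 55.9, 26.7 and 11.01 CPM of it in KO 1, WT 1 and WT 2, against 715, 744 and 1255 CPM in members (log2 change 5.17 ± 0.65, edgeR adjusted p = 0.00823). Cd200 was higher by 3.97 ± 0.46 and 4.94 ± 0.42 (0.000490 and 2.81e-06), Cd274 by 3.07 ± 0.34 and 2.46 ± 0.23 (0.000434 and 5.50e-06) and Pdcd1lg2 by 2.15 ± 0.33 and 2.04 ± 0.26 (0.00240 and 9.10e-05). Against Cd209a-gated cDC2, calls were lost without WT 1 for Il4i1 (5.27, edgeR adjusted p = 0.224) and for Socs3 (-0.55, 0.143). Activating and inhibitory ligands for T cells were thus both higher in members than in either Ccr7-negative population.

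**Figure D4:**
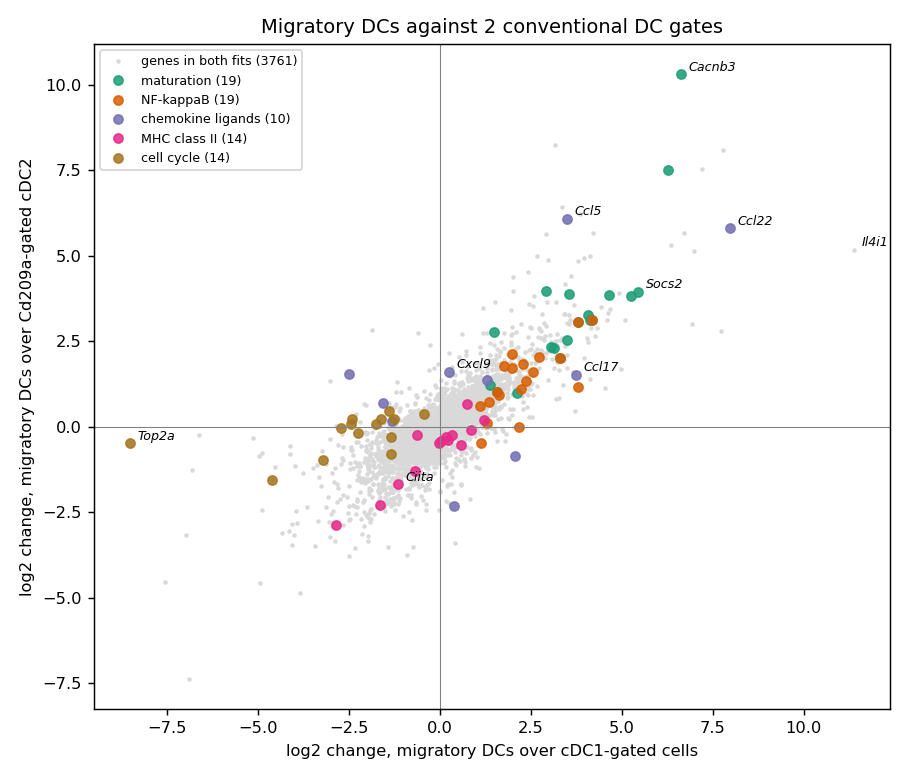
Log2 change of migratory DCs over cDC1-gated cells (horizontal) and over Cd209a-gated cDC2 (vertical) for the 3761 genes in both fits, with gate genes left out and 5 gene lists coloured. Both axes share the counts of the migratory DCs; maturation and NF-kappaB genes lie in the upper right, with Ccl22 at 7.98 and 5.81, and cell cycle genes lie to the left near 0 on the vertical axis.

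NF-kappaB genes were higher as a group, 15 of 19 tested against cDC1-gated cells and 13 of 19 against Cd209a-gated cDC2, and none was lower. The list's median log2 change was 2.17 and 1.33, against -0.01 and 0.02 over all genes. Relb had 482 and 374 CPM in members of KO 1 and WT 2, against 33.0 and 40.8 CPM in cDC1-gated cells (3.79 ± 0.29, edgeR adjusted p = 7.73e-05), and its change against Cd209a-gated cDC2 was 3.07 ± 0.25 (1.61e-06). Its partner Nfkb2 was higher by 2.55 ± 0.34 and 1.59 ± 0.25, and Map3k14, the kinase that triggers Nfkb2 processing, by 3.80 ± 0.35 and 1.15 ± 0.32. The call of Map3k14 against Cd209a-gated cDC2 was lost with total counts (0.94, edgeR adjusted p = 0.0567), where 10 of 19 genes were higher, and also without KO 1 (1.06, 0.0923) and without WT 2 (0.67, 0.165). Birc2 and Traf1, which form a complex below TNF receptors, were higher by 4.20 ± 0.39 and 3.30 ± 0.27 against cDC1-gated cells and by 3.12 ± 0.26 and 2.01 ± 0.18 against Cd209a-gated cDC2. Rel was higher by 2.74 ± 0.34 and 2.03 ± 0.23, and Nfkbia, the inhibitor that NF-kappaB itself induces, by 2.37 ± 0.27 and 1.33 ± 0.18.

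Promoters of 4 of these higher genes are shown because NF-kappaB genes were higher together here and NF-kappaB is known to act on its own subunits and inhibitor. The sequences are the 250 bases before the start from RefSeq on GRCm38.p6, 5' to 3' on the gene's strand, with matches on either strand to a form of the kappaB consensus (GGG, any 3 bases, then TTCC) in capitals. The windows are chr19:46304487-46304736 on the plus strand for Nfkb2, chr11:23770970-23771219 on the minus strand for Rel, chr12:55492648-55492897 on the minus strand for Nfkbia and chr8:94745434-94745683 on the plus strand for Ccl22.
Nfkb2: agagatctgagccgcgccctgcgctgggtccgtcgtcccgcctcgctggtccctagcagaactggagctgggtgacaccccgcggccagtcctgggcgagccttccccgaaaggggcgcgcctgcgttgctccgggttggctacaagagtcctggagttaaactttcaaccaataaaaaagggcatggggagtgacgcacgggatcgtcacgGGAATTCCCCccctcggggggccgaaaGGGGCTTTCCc
Rel: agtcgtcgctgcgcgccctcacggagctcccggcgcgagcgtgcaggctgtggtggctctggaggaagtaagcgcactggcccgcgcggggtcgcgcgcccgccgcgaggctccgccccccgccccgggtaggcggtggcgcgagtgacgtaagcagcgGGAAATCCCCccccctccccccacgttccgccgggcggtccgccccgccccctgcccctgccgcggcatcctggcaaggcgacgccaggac
Nfkbia: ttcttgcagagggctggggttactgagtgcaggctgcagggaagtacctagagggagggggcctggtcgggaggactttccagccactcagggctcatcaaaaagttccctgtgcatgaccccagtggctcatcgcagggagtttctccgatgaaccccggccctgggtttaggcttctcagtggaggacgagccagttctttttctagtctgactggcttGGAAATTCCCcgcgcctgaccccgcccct
Ccl22: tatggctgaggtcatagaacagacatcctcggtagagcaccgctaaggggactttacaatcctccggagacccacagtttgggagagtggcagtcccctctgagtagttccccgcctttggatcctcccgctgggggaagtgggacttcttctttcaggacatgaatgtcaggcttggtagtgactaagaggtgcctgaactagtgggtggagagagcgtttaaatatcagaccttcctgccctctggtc
Nfkb2 held 2 matches, which began 38 and 11 bases before the start, and Rel and Nfkbia 1 each, 91 and 29 bases before it. Ccl22 held none, which says only that these letters are not in this window. Of the NF-kappaB list, 17 genes had a promoter in the table and 7 of them held a match, as did 1 of 16 of the maturation list and 4 of 10 of the chemokine list, against 4.65% of 32851 promoters in all. A match is a run of letters only and does not show binding.

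Among antigen presentation genes, class I calls were more common against Cd209a-gated cDC2 than against cDC1-gated cells. Over all genes, 12.0% were higher and 10.4% lower than in Cd209a-gated cDC2. Against cDC1-gated cells these shares were 11.8% and 8.10%. Of MHC class I and peptide loading genes, 11 of 22 tested were higher than in Cd209a-gated cDC2 and 2 lower (6 and 2 with total counts), but 4 of 21 higher and 2 lower than in cDC1-gated cells. Psme2, a subunit of the PA28 proteasome activator, was higher by 1.81 ± 0.19 and 1.52 ± 0.30 (edgeR adjusted p = 1.48e-05 and 0.00773). H2-K1 was higher than in Cd209a-gated cDC2 by 0.65 ± 0.18 (0.0187) and had a log2 difference of 0.75 ± 0.30 from cDC1-gated cells (0.110). With total counts it did not pass against Cd209a-gated cDC2 (0.44, edgeR adjusted p = 0.0613), nor without WT 1 (0.65, 0.0980) or WT 2 (0.53, 0.0891), and with a minimum of 10 cells it passed against cDC1-gated cells (0.61, 0.0113). The H2-Q genes on the list share reads with near-identical paralogs and are uncertain. Ciita had 81.3, 110 and 98.5 CPM in members of KO 1, WT 1 and WT 2, against 333, 389 and 349 CPM in Cd209a-gated cDC2, a log2 change of -1.68 ± 0.22 (0.000123), and it was also lower than in cDC1-gated cells (-1.14 ± 0.28, 0.0212). H2-DMb1, a chain of the peptide exchange factor, and Marchf1, the ligase that turns over surface MHC class II, were also lower in each comparison. Of 14 MHC class II genes tested against cDC1-gated cells, 3 were lower and 1 was higher (H2-Oa). The class II chains H2-Aa and H2-Eb1 and the invariant chain Cd74 did not pass in either. Cd74 had a log2 difference of -0.38 from Cd209a-gated cDC2 (edgeR adjusted p = 0.226) and was lower there with total counts (-0.59, 0.0214), with a minimum of 10 cells (-0.42, 0.0404) and without KO 1 (-0.53, 0.0485). H2-Eb1 was lower there without KO 1 (-0.56, edgeR adjusted p = 0.0475). The H2-Ab1 minimum that chose all 3 populations bears on these genes directly.

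Lineage genes differed from each Ccr7-negative population. Naaa, an acid amidase typical of cDC1, had 75.9 and 29.5 CPM in members of KO 1 and WT 2, against 1110 and 1060 CPM in cDC1-gated cells (-4.15 ± 0.36, edgeR adjusted p = 0.000132). Cadm1, Wdfy4, Tlr3 and Itgae were lower as well, 5 of 7 cDC1 genes tested. Irf8, which maintains cDC1, had a log2 difference of -0.61 ± 0.30 from cDC1-gated cells (0.189; with a minimum of 10 cells -0.77 and 0.00459) and was higher than in Cd209a-gated cDC2 by 2.73 ± 0.23 (2.01e-06), and Batf3 was higher there by 2.17 ± 0.28 (9.80e-05). Of 6 cDC2 genes tested 5 were lower than in Cd209a-gated cDC2, among them Clec10a, Mgl2 and Sirpa with log2 changes of -3.75 ± 0.34, -2.16 ± 0.26 and -1.05 ± 0.30 (edgeR adjusted p = 5.50e-06, 6.53e-05 and 0.0223). Sirpa did not pass without WT 1 (-0.72, edgeR adjusted p = 0.0986). Cell cycle genes were lower in 11 of 16 against cDC1-gated cells, in a fit of KO 1 and WT 2, and in 2 of 17 when WT 1 and KO 2 were added by a minimum of 10 cells. WT 1, which entered only then, held the deep cycling cell, and its part in this was not tested.

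In members, no gene passed between the genotypes. Of 2546 genes tested 0 (0%) had an adjusted p at or below 0.05 in edgeR's quasi-likelihood test of KO against WT, where the lowest was 0.140, and 270 had an unadjusted p under 0.05, 136 higher and 134 lower in KO. DESeq2 also called 0, with 109 at an unadjusted p under 0.05. The count depended on single libraries, since 18 genes passed without KO 1, 45 without KO 2, 82 without WT 1 and 160 without WT 2, where the lone library is assumed to vary like the other group. Without the barcodes above the 98th percentile of UMIs of their library, which removes the deepest cell of WT 1 and 1 cell of KO 1, 24 genes passed (7 higher and 17 lower in KO). With no filter on low counts 67 passed.

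The genes of smallest p are given as values, since none passed. Lgals3, the gene of galectin-3, had 1918 and 2024 CPM in KO members, against 881 and 1000 in WT members (log2 difference 0.98 ± 0.18). Serpinb9, an inhibitor of granzyme B, had 878 and 754 CPM in KO members, against 345 and 286 in WT members (1.29 ± 0.25). Both genes were higher in KO in other cells too. Lgals3 had 4131 and 5091 CPM in macrophage-gated cells of KO and 2482 and 3229 in those of WT. In T cell-gated cells it had 1037 and 1003 CPM in KO and 515 and 560 in WT. Serpinb9 had 221 and 224 CPM in T cell-gated cells of KO and 40.4 and 54.0 in those of WT. In macrophage-gated cells it had 14.8 and 12.4 CPM in KO and 6.05 and 7.19 in WT. Fabp5 had 3191 and 3571 CPM in KO members, against 5899 and 7966 in WT members (-1.12 ± 0.19). In macrophage-gated cells Fabp5 went the other way, at 1810 and 1667 CPM in KO and 772 and 875 in WT. The adjusted p was 0.140 for each of these 3 genes in edgeR. Since they were picked by their p, the lack of overlap between genotypes in members is no further support. Ptgs2, which makes prostaglandin precursors, had 168 and 94.3 CPM in KO members and 23.5 and 9.85 in WT members. It was seen in 8 and 5 KO members and in only 3 and 1 WT members. Gsto1, a glutathione transferase, had 48.8 and 25.2 CPM in KO members and 153 and 143 in WT members. It was seen in 7 and 1 KO members and in 15 and 13 WT members. Adam23, Rps2 and Tmem176a were also among the 5 smallest p with lower values in KO, and Ranbp2 among the 5 with higher values.

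The genes of the migratory programme gave no call between genotypes. Ccl22 averaged 1937 ± 72.4 CPM in KO members and 2723 ± 822 CPM in WT members (SD, n = 2 libraries each), with a log2 difference of -0.58 ± 0.22 (SE; edgeR adjusted p = 0.416). Il4i1 averaged 694 ± 30.0 CPM in KO members and 1000 ± 362 CPM in WT members (-0.61 ± 0.28, adjusted p = 0.469 in edgeR), and Ccl17 gave -0.33 ± 0.18 (0.576). Cd274 had 493 and 478 CPM in KO members, against 290 and 286 in WT members (0.67 ± 0.26, 0.394). Cd40 and Il12b overlapped between genotypes, with Cd40 at 488 and 170 CPM in KO members and 153 and 207 in WT members. Among MHC class II genes, Cd74 gave -0.07 ± 0.19 (0.955) and H2-Aa 0.03 ± 0.18 (0.981), directions that turn under the settings given at the end. H2-DMb1 had 368 and 201 CPM in KO members, against 102 and 163 in WT members (1.05 ± 0.39, edgeR adjusted p = 0.386). None of 21 maturation, 18 NF-kappaB, 21 MHC class I and 12 MHC class II genes tested passed, with median log2 differences of 0.12, 0.21, 0.60 and -0.05, against -0.01 over all genes.

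Interferon response genes had positive differences without a call. Of 25 interferon gamma response genes 15 had enough counts to be tested, and these 15 had positive log2 differences with a median of 0.85. Of 24 type I interferon genes 8 were tested, also with positive differences, and their median was 1.48. Gbp2, a guanylate-binding protein, had 341 and 270 CPM in KO members, against 66.6 and 197 in WT members (1.16 ± 0.47, edgeR adjusted p = 0.440). Isg15 had 677 and 333 CPM in KO members, against 15.7 and 227 in WT members (2.03 ± 1.34, edgeR adjusted p = 0.742). WT 1 was the lowest library for both genes, and without it the medians were 0.44 for the interferon gamma list and 0.93 for the type I list. Without WT 2 they were 1.63 and 3.36, and without KO 1 they were 0.35 and 0.67. Without the barcodes above the 98th percentile of UMIs they were 0.57 and, over 5 genes, 0.81. Among members with at most 2 UMIs of C1q genes the medians were 0.79 over 10 genes and 0.84 over 3, again with 0 calls. Macrophage-gated cells had Gbp2 at 357 and 263 CPM in KO and 70.0 and 83.5 in WT. C1q RNA in members moved with genotype too, as given above, and its part in these values was not tested.

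**Figure D5:**
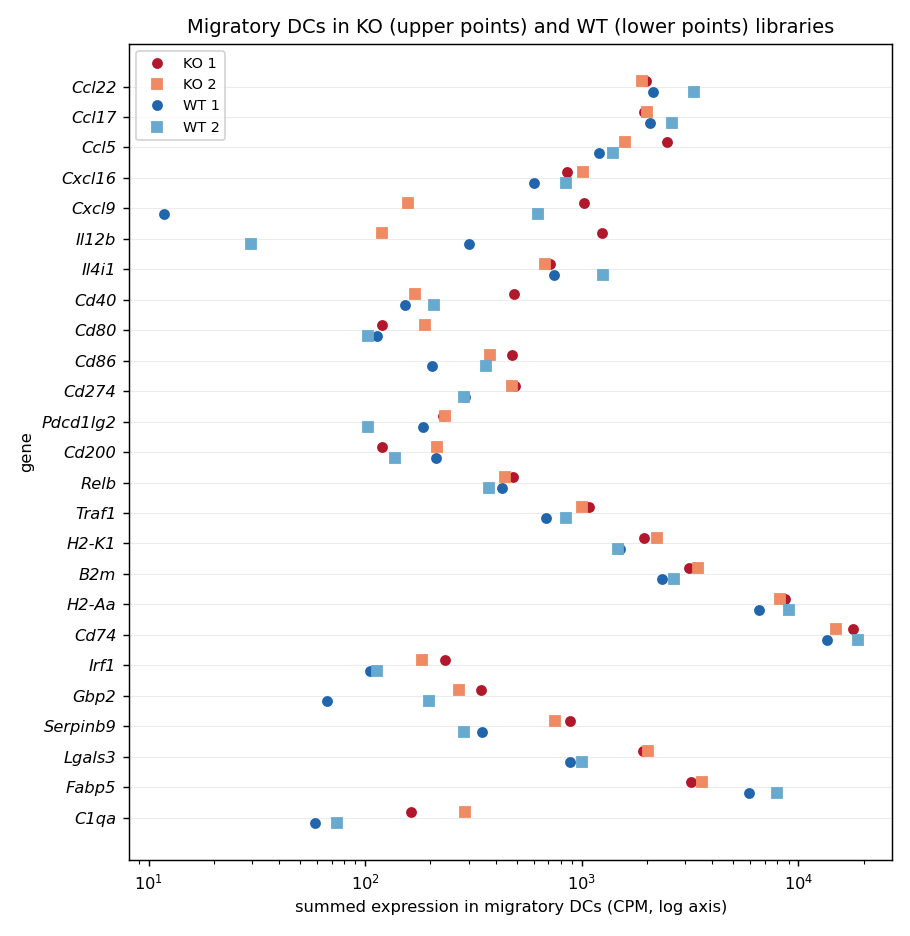
Summed expression (CPM, log axis) of 25 genes in migratory DCs of KO libraries (upper points of each row) and WT libraries (lower points). KO and WT points overlap for Cxcl9, Il12b, Cd40, Cd200, H2-Aa and Cd74 and are apart for the other genes shown. With 2 libraries per genotype, points that lie apart are no sign of a difference by themselves, and no gene passed the test between genotypes.

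Calls appeared when the H2-Ab1 minimum was dropped, which raised the cells to 56 and 39 in KO and 76 and 83 in WT. Then 73 of 4805 genes rose in KO (1.52%) and 27 fell (0.562%). Of the interferon gamma list 5 of 21 rose (Irf1, Gbp2, Iigp1 and Tgtp1 among them), of the type I list 4 of 11 (Isg15, Rsad2, Irf7, Usp18), and none of either fell. Gbp2 had 256 and 261 CPM in KO, against 89.95 and 148 in WT (1.09 ± 0.23, edgeR adjusted p = 0.00122). Rsad2, an antiviral enzyme, had 83.4 and 115 CPM in KO, against 1.91 and 3.6 in WT (5.00 ± 0.54, 1.22e-13). In KO 2, however, 1 of 39 cells held all 38 of its UMIs, and without that cell the level there is 0. In KO 1 a single cell held 48.3% of its UMIs, and without that cell the level was 44.2 CPM. Isg15 had 460 and 449 CPM in KO, against 51.7 and 135 in WT (2.24 ± 0.39, 0.0314), with 35.0% and 39.2% of its UMIs in KO from a single cell each. H2-DMb1 rose as well, to 221 and 106 CPM in KO, against 66.98 and 84.7 in WT (1.09 ± 0.28, edgeR adjusted p = 0.0157), 1 of 14 MHC class II genes. Macrophage-gated cells held less Rsad2 and Isg15 than these cells in KO, at 60.8 and 52.3 CPM and at 90.6 and 88.6 CPM. In WT macrophage-gated cells had 28.0 and 36.3 CPM of Rsad2 and 55.1 and 60.6 CPM of Isg15. Without the richest cell of each KO library, Rsad2 in these Ccr7-positive cells (44.2 and 0 CPM) lay below the macrophage levels. Isg15 was then at 324.8 and 286.5 CPM.

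The macrophage genes C1qa, C1qb and C1qc rose as well, 3 of 6 of that list, with C1qa at 167 and 246 CPM in KO and 63.2 and 86.5 in WT (1.43 ± 0.25, edgeR adjusted p = 2.74e-05). A single cell of KO 2 held 35.8% of its C1qa UMIs, and without it the level there was 170 CPM. Summed macrophage markers in H2-Ab1-low cells were 1360 and 1089 CPM in KO and 431 and 568 in WT. Ptgs2 rose to 118 and 60.6 CPM in KO, against 13.4 and 3.6 in WT (3.37 ± 0.46, 1.59e-08), and in macrophage-gated cells it had 359 and 271 CPM in KO and 143 and 90.7 in WT. Ccl4 rose too (3.14 ± 0.43, 1.55e-07), with 2750 and 3659 CPM in T cell-gated cells of KO and 849 and 955 in those of WT. The part of RNA from those cells in these calls was not tested.

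Among the genes that fell, Fabp5 moved the other way in macrophages. It fell to 2780 and 3659 CPM in KO, against 5540 and 5532 in WT (-0.80 ± 0.21, edgeR adjusted p = 0.0163), whereas in macrophage-gated cells it was higher in KO, at 1810 and 1667 CPM against 772 and 875 CPM in WT (1.25, 0.00173). Icosl, the ligand of Icos on T cells, fell to 57.5 and 27.3 CPM in KO, against 99.5 and 84.7 in WT (-1.12 ± 0.33, 0.0470). Jun fell to 170 and 115 CPM in KO, against 341 and 332 in WT (-1.25 ± 0.22, 2.74e-05), and Gsto1 to 89.1 and 30.3 CPM in KO, against 147 and 191 in WT (-1.51 ± 0.31, 0.00211). Jun is on the dissociation stress list, of which Fos (0.83 ± 0.21, edgeR adjusted p = 0.0124) and Atf3 (1.37 ± 0.34, 0.0123) rose in KO, so that 2 of 15 genes tested rose and 1 fell. Of the migratory programme itself, none of 11 migration and 20 NF-kappaB genes passed, and 1 of 23 maturation genes did, Fabp5. The share of the H2-Ab1-low cells in this wider set differed between genotypes, as given above, and its part in these calls was not tested either.

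The difference of the KO effect between members and Cd209a-gated cDC2 was tested itself, in KO 1, WT 1 and WT 2. It passed for 22 of 5622 genes (0.391%), 16 with a more positive and 6 with a more negative KO difference in members. With total counts 0 passed, with 235 at an unadjusted p under 0.05, and with all 4 libraries, at a minimum of 10 cells, 0 of 3923 passed, with 246. The result rests on a single KO library. For cDC1-gated cells the same test could not be fitted at 20 cells, and at 10 cells 0 of 3939 genes passed in edgeR, with 163 at an unadjusted p under 0.05. No KO difference was therefore shown to be particular to migratory DCs.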

How the data were processed

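Single-cell RNA was measured in 4 libraries of immune cells from MC38 tumours, 2 from Park2-/- mice (KO) and 2 from WT mice. The deposited matrices hold raw UMI counts per gene and barcode, which per the file headers came from Cell Ranger 5.0.0. The submitters' processing notes give version 5.0.1 and also name Seurat 3.15 and the mm10 build. No normalization, doublet removal or cell annotation by the authors was used, and no doublet caller was run. Library totals ranged from 94213071 to 130466357 UMIs. The number of UMIs limits the precision of each level, and exact (Clopper-Pearson) 95% intervals of shares cover counting error only.

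Members were gated on raw counts, and counts were summed per library and population, since cells are not replicates. Sums were tested with edgeR 4.0.16 (filterByExpr, TMM, robust quasi-likelihood fit, Benjamini-Hochberg, threshold 0.05) in R 4.3.3, without a replicate block for KO against WT and with the library as a block between populations, where at least 20 cells per population were needed. DESeq2 1.42.0 was an alternative. Shares were compared over libraries by an exact two-sided permutation test in scipy 1.17.1. The edgeR test of KO against WT was also tried on simulated counts, with the dispersion taken from its fit to the real sums. A fold against a group at 0 is a lower bound with 3 counts over that group. Alternatives were the scaling, the filter, other gates, the mitochondrial limit, at most 2 UMIs of C1q genes, cells above the 98th percentile of UMIs, thinning to 3000 UMIs and leaving out each library. Dropping the H2-Ab1 minimum and a minimum of 10 cells were added after the data had been seen.

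The members, the gene lists and the tests were chosen with earlier results of these data known. Named genes were those of largest change among genes past the threshold in each direction, the passing members of the lists, and a panel given whatever its result; where fewer than 5 passed in a direction, the 5 of smallest p were given as values. Genes named outside this rule, in the H2-Ab1-low cells, were chosen after their values were seen. Gate genes got no test. A few genes, the targeted gene among them, are not reported here.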

Additional observations from a re-analysis of the deposited data

Results flagged for a closer look

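In KO 1 against WT 1 and WT 2, with a single KO library, edgeR's test of the difference of the KO effect between migratory DCs and Cd209a-gated cDC2 passed for 22 genes. It passed for 0 with total counts and for 0 with all 4 libraries, with 235 and 246 at an unadjusted p under 0.05. Fabp5 had a difference of -2.01 ± 0.36 on the log2 scale (adjusted p = 3.77e-05), with 3191 and 3571 CPM in KO members and 5899 and 7966 in WT members, and with 649 and 296 CPM in Cd209a-gated cDC2 of KO and 334 and 376 in those of WT. Ccl17 had a difference of 1.88 ± 0.38 (0.000639), with 309 and 1478 CPM in Cd209a-gated cDC2 of KO and 1027 and 1896 in those of WT. KO 2 did not enter that fit, and with all 4 libraries the differences were -1.49 (edgeR adjusted p = 0.529) for Fabp5 and 0.67 (0.989) for Ccl17. Ccl17 in Cd209a-gated cDC2 thus differed between KO 1 and KO 2 by more than between KO 2 and either WT library.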

How the results depend on the processing

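The log2 ratio of the share of members, KO over WT, was -0.98 to -0.61 when a library was left out, -1.01 among Ptprc-positive barcodes, 0.16 among gated dendritic cells, 0.52 within the gate without its H2-Ab1 minimum, -1.34 with at most 2 C1q UMIs, -1.31 with no H2-Ab1 minimum and -0.55 after thinning. The 0 genes between genotypes became 67 without the filter, 18 to 160 with a library left out, 24 without barcodes above the 98th percentile and 100 with no H2-Ab1 minimum. The 22 genes that differed against Cd209a-gated cDC2 became 0 with total counts and 0 with a minimum of 10 cells. Deviations of same-numbered libraries had a correlation of -0.0321. From sums of so few cells this value cannot show whether replicate numbers pair the libraries. A replicate block gave 0 genes, with 214 at an unadjusted p under 0.05.

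Uncalled log2 differences, KO over WT, changed sign as follows. With a library left out they ranged from -0.027 to 0.61 for Cxcl16, -1.15 to 5.59 for Cxcl9, -0.58 to 4.37 for Il12b, -0.20 to 1.41 for Cd40, -0.58 to 0.18 for Cd200, -0.011 to 0.43 for Socs1, -2.01 to 0.080 for Birc3, -0.14 to 1.01 for Tap1, -0.26 to 0.34 for H2-Aa, -0.28 to 0.53 for H2-Eb1, -0.35 to 0.25 for Cd74 and -0.39 to 0.36 for Ciita. After thinning Ccl5 was at -0.032, Cxcl16 at -0.11 and H2-Aa at -0.084. Without the deepest barcodes Relb was at -0.048, H2-Aa at -0.22, H2-Eb1 at -0.14 and Ciita at -0.17. With no H2-Ab1 minimum Socs1 was at -0.14 and Cd74 at 0.28, and with at most 2 C1q UMIs Cd74 was at 0.11 and Ciita at -0.17. Cd74 was at 0.0025 with total counts, and Ciita at -0.0016 with at most 10% mitochondrial UMIs and at -0.013 with the replicate block. The cause of these changes was not tested.

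Of the genes named between populations, 392 values under an alternative kept their direction and side of the threshold, 19 lost the call and 10 gained one, as given in the report except for Top2a, Tk1 and Dut (lost at a minimum of 10 cells) and, against Cd209a-gated cDC2, Havcr2 (gained there), Wdfy4 and Cxcl2 (gained without KO 1 and WT 2). Uncalled differences from cDC1-gated cells changed sign with total counts for Cxcl9 (-0.025), H2-Eb1 (-0.11), Cd74 (-0.066), Batf3 (-0.026), Mgl2 (-0.13) and Sirpa (-0.18), and with a minimum of 10 cells for Cxcl9 (-1.25), Ccl4 (-0.93), H2-Aa (-0.047), H2-Eb1 (-0.19), Cd74 (-0.14) and Sirpa (-0.24). Cxcl2 over Cd209a-gated cDC2 ranged from -0.43 to 1.53 with a library left out. Fits with thinned cells or few C1q UMIs fell under the cell minimum between populations, and leaving out a library could not be fitted against cDC1-gated cells or for the difference of KO effects. With 15 to 21 members per library, depth limits the genes that can be tested to the more abundant ones.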
